A study of Homo sapiens with 32 samples.

Results

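The genes described here are 45 protein-coding genes that detect, signal and repair DNA double-strand breaks and damaged replication forks, taken from the 20037 protein-coding genes of the GRCh38 RefSeq gene table. They were listed by their roles in repair, and a peak was counted for a gene when it overlapped the gene body by at least 1 bp. The measurement was MeRIP-seq, in which fragments of total RNA are enriched with an antibody against N6-methyladenosine (m6A) and compared with the Input RNA, and each list holds the peaks called in 1 library. There were 16 lists, 8 from 786-O, a clear cell renal cell carcinoma (ccRCC) line, and 8 from RPTEC, renal proximal tubule epithelial cells immortalized with hTERT. In each cell line the parental WT cells, the SETD2KO-1 and SETD2KO-2 clones made with CRISPR/Cas9, and SETD2KO-1R, the first clone with tagged full-length SETD2 put back, had 2 libraries each. The 4 libraries of SETD2KO-1 and SETD2KO-2 are called SETD2KO, and the other 4 of the cell line SETD2-expressing. Each line is a parental culture or 1 clone, and no source says that the 2 libraries of a line came from separate cultures, so that all p-values measure the spread between these libraries, which may be technical. The cell lines were profiled in separately named experiments, so that cell line and experiment cannot be told apart.

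m6A is placed on nascent RNA by the METTL3 and METTL14 complex, mostly in the sequence context around GGAC, and is bound by reader proteins that act on splicing, stability and translation. SETD2 trimethylates lysine 36 of histone H3 (H3K36me3) over the bodies of transcribed genes. This mark is itself read by repair proteins: PSIP1 (LEDGF) and the mismatch repair protein MSH6 bind it through PWWP domains. A break is first bound by the MRE11, RAD50 and NBN complex or by the Ku proteins, signaled by the kinases ATM and ATR, marked on chromatin by MDC1, RNF8 and RNF168, and then joined end to end or repaired from the sister chromatid by homologous recombination. The Fanconi anaemia proteins act where crosslinks block replication, and helicases such as BLM and WRN unwind the joined intermediates.

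The lists held 25710 to 39670 peaks per library in 786-O (median 32377.5) and 19249 to 31207 in RPTEC (median 26754), and no read counts, so that the depth behind a peak is unknown. A peak number moves with the abundance and length of the RNA and with the length of the list as well as with m6A, and these cannot be told apart here. The renal epithelial markers PAX8, KRT8 and KRT18 had peaks in all 8 libraries of both cell lines, and CDH16 in 2 libraries of 786-O and 1 of RPTEC. Of the proximal tubule markers, GGT1 had peaks in all 8 libraries of both, LRP2 and AQP1 had none in any library, and CUBN had a peak in 1 library of 786-O and none of RPTEC. SLC5A2, a glucose transporter of the proximal tubule, had peaks in all 8 libraries of 786-O and none of RPTEC, so that the marker list did not set RPTEC apart as proximal tubule. The ccRCC marker CA9 had no peak, while EPAS1 and SLC2A1 had peaks in all 8 libraries of both cell lines and VIM in 8 of 786-O and 6 of RPTEC. SETD2 itself held 4 to 11 peaks in every library, knockout clones included, and a peak over its gene body is no check of the knockout.

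The repair genes held 2011 of the 474004 peaks. Of the 45 genes, 44 had a peak in at least 1 library and 25 had one in all 16 libraries, against 4626 of the 20037 protein-coding genes, or 23.1%. The repair genes were longer, with a median gene body of 73281 bp against 24115 bp over protein-coding genes, and the part of length in this difference was not tested. Per library they held 122 to 181 peaks in 786-O, with a median of 142, and 74 to 142 in RPTEC, with a median of 108.5, so that the ranges overlapped. The number of repair genes with at least 1 peak was 39 to 43 per library in 786-O and 33 to 42 in RPTEC. Scaled to the length of each list, they took 44.2 ± 4.79 of every 10000 peaks in 786-O (SD, n = 8) and 40.4 ± 4.44 in RPTEC (SD, n = 8).

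**Figure D1:**
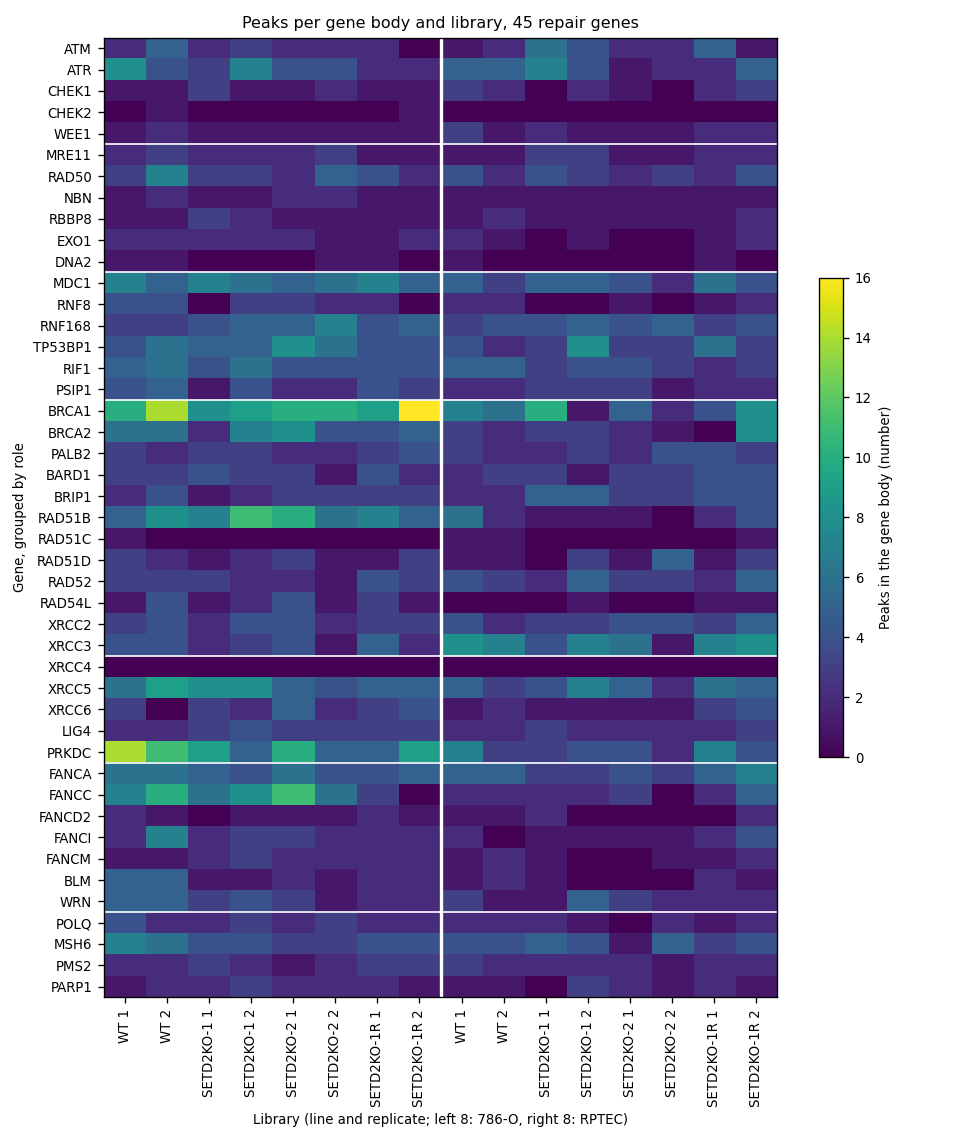
Number of peaks over each repair gene (vertical axis, grouped by role) in each of the 16 libraries (horizontal axis), with the count written in colour. Brighter colours are higher counts. BRCA1, PRKDC and RAD51B are brightest in the 786-O columns, XRCC3 is brighter in the RPTEC columns, and XRCC4, with no peak, is dark throughout.

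No kinase that signals damage was called between the cell lines. Summed over the 5 genes, the mean was 9.25 peaks per library in 786-O and 10 in RPTEC. ATR, the kinase that answers stalled forks, had peaks in all 16 libraries and 4.25 ± 2.19 in 786-O against 3.88 ± 2.03 in RPTEC (SD, n = 8 each). ATM, the kinase that answers breaks, had 2.25 ± 1.39 and 2.88 ± 1.89 and was without a peak in 1 library. WEE1, which holds cells before mitosis, had 1 or 2 peaks per library in 786-O and 1 to 3 in RPTEC. The checkpoint kinase CHEK1, which acts downstream of ATR, had peaks in 14 libraries, and CHEK2, which acts downstream of ATM, in 2 libraries of 786-O and none of RPTEC. Scaled to 10000 library peaks, ATM, ATR, CHEK1 and WEE1 had the higher mean in RPTEC, at 0.660, 1.29, 0.429 and 0.344 in 786-O and 1.1, 1.48, 0.581 and 0.613 in RPTEC, and ATR had turned.

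The genes of break sensing and end resection had few peaks each. The MRE11, RAD50 and NBN complex was covered in all 16 libraries, with RAD50 at 2 to 7 peaks per library and NBN at 1 or 2. RBBP8 (CtIP), which starts resection together with MRE11, also had a peak in all 16, at 1 to 3. The nuclease EXO1, which extends resection, had 1.75 ± 0.463 peaks in 786-O and 0.875 ± 0.835 in RPTEC (SD, n = 8 each), with a peak in 8 and 5 libraries. DNA2, the other long-range resection nuclease, had a peak in 6 libraries. The 6 genes had higher mean peak numbers in 786-O, but per 10000 library peaks MRE11, RAD50 and RBBP8 turned.

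Of the 6 genes of the chromatin response, 5 had a peak in all 16 libraries. MDC1, the scaffold that binds phosphorylated H2AX, had 5, 6 and 7 peaks as lowest, median and highest in 786-O and 2, 4.5 and 6 in RPTEC. The ranges overlapped, and the difference in means of 1.75 did not pass (exact permutation test with Benjamini-Hochberg adjustment, adjusted p = 0.128). TP53BP1, which shields ends from resection, had 4, 5 and 8 peaks in 786-O and 2, 3 and 8 in RPTEC, again overlapping (exact permutation test, adjusted p = 0.575). RNF168, the ubiquitin ligase that marks H2A for TP53BP1, had 3 to 7 peaks in 786-O and 3 to 5 in RPTEC. RIF1, a partner of TP53BP1, had 2 to 6 per library, and PSIP1 had 1 to 5. RNF8, the ligase that acts before RNF168, had none in 5 libraries. The 6 genes had higher mean peak numbers in 786-O, and per 10000 library peaks RNF168 turned, at 1.41 and 1.57.

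Homologous recombination held the most peaks of the 7 groups, 638 over 12 genes, and split by cell line: 5 genes had the higher mean in 786-O, 6 in RPTEC, and BARD1, the partner of BRCA1, was equal in both at 2.88 ± 0.991 (SD, n = 8 each). On the scale of 10000 library peaks 4 were higher in 786-O and 8 in RPTEC, where RAD51D had turned, at 0.619 and 0.758, and BARD1 was at 0.871 and 1.12. BRCA2, which acts after resection, had 5.25 ± 1.91 peaks in 786-O and 2.75 ± 2.38 in RPTEC, with overlapping ranges. PALB2, which joins BRCA1 to BRCA2, had 2 to 4 peaks in every library. The helicase BRIP1, the annealing protein RAD52 and XRCC2, which also acts in recombination, had means of 2.62 to 3.12 in 786-O and 3.38 to 3.50 in RPTEC. RAD51D and RAD51C, both recombination genes, had peaks in 15 and 4 libraries. RAD54L, a motor protein of recombination, had 1, 1.5 and 4 peaks as lowest, median and highest in 786-O and 0, 0 and 1 in RPTEC.

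In nonhomologous end joining, XRCC5 and XRCC6 (Ku80 and Ku70), which thread onto the broken end, had 6.25 ± 1.83 and 2.75 ± 1.49 peaks in 786-O against 4.62 ± 1.60 and 1.75 ± 1.16 in RPTEC (SD, n = 8 each). XRCC5 had 4, 5.5 and 9 peaks as lowest, median and highest in 786-O and 2, 5 and 7 in RPTEC, and these ranges overlapped (exact permutation test, adjusted p = 0.405). The ligase LIG4 had 2 to 4 peaks in every library. Its partner XRCC4 had no peak in any of the 16. PRKDC encodes DNA-PKcs, the kinase that Ku recruits. It had 5, 9 and 14 peaks as lowest, median and highest in 786-O and 2, 4 and 7 in RPTEC. The 786-O mean of 8.50 ± 3.30 lay above the RPTEC mean of 4.25 ± 1.83, but the ranges overlapped and the difference did not pass (exact permutation test, adjusted p = 0.0965).

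The 7 genes of the Fanconi anaemia pathway and the RecQ helicases had a higher mean peak number in 786-O, as did 64.2% of all genes, and none of the 7 passed. Per 10000 library peaks FANCA turned, at 1.54 in 786-O and 1.65 in RPTEC, and the other 6 stayed higher in 786-O. Summed over the group, the mean was 22.8 peaks per library in 786-O and 13.1 in RPTEC. FANCC, a subunit of the Fanconi core complex, had 6.38 ± 3.58 peaks in 786-O and 2.25 ± 1.39 in RPTEC (SD, n = 8 each), but 786-O SETD2KO-1R replicate 2 had none (exact permutation test, adjusted p = 0.130). Without that library FANCC was called higher in 786-O. FANCA, another core subunit, had 4, 5 and 6 peaks as lowest, median and highest in 786-O and 3, 4.5 and 7 in RPTEC. These ranges overlapped, with means of 5 ± 0.926 and 4.38 ± 1.41. FANCD2 and FANCI, the pair that the core complex ubiquitinates, had means of 1.12 and 2.88 in 786-O and 0.75 and 1.5 in RPTEC. FANCM, the anchor of the core complex, had a peak in 14 libraries. The RecQ helicases BLM and WRN had means of 2.38 and 3.12 in 786-O and 0.875 and 2.38 in RPTEC.

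The 4 genes of other pathways also had higher mean peak numbers in 786-O, but per 10000 library peaks MSH6 and PMS2 turned, at 1.35 and 0.714 in 786-O and 1.48 and 0.755 in RPTEC. POLQ, the polymerase of alternative end joining, had 2.50 ± 0.756 peaks against 1.5 ± 0.756 in RPTEC (SD, n = 8 each). The mismatch repair genes MSH6 and PMS2 had means of 4.38 and 2.25 in 786-O and 3.75 and 2.00 in RPTEC, each with a peak in all 16 libraries. PARP1, which binds breaks and builds poly(ADP-ribose), had 1.88 ± 0.641 and 1.38 ± 0.916.

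Across the groups, 34 of the 44 genes with a peak had the higher mean in 786-O and 9 the lower, with a median difference of 0.625 peaks. Over the 13420 genes with a peak, 8616 were higher and 3872 lower, with a median difference of 0.25. Two-sided exact permutation tests over the 8 and 8 libraries, adjusted over the 13420 genes, called 2 repair genes, RAD51B and BRCA1, both higher in 786-O. The background was 3.44% of genes called higher in 786-O and 1.92% called higher in RPTEC. The longer 786-O lists bear on this: per 10000 library peaks, 25 repair genes were higher in 786-O and 19 in RPTEC, with a median difference of 0.0424, against 0.00454 over all genes. On that scale 3 repair genes were called, RAD51B and RAD54L higher in 786-O and XRCC3 higher in RPTEC, where 3.20% of all genes were called higher in 786-O and 3.82% higher in RPTEC.

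**Figure D2:**
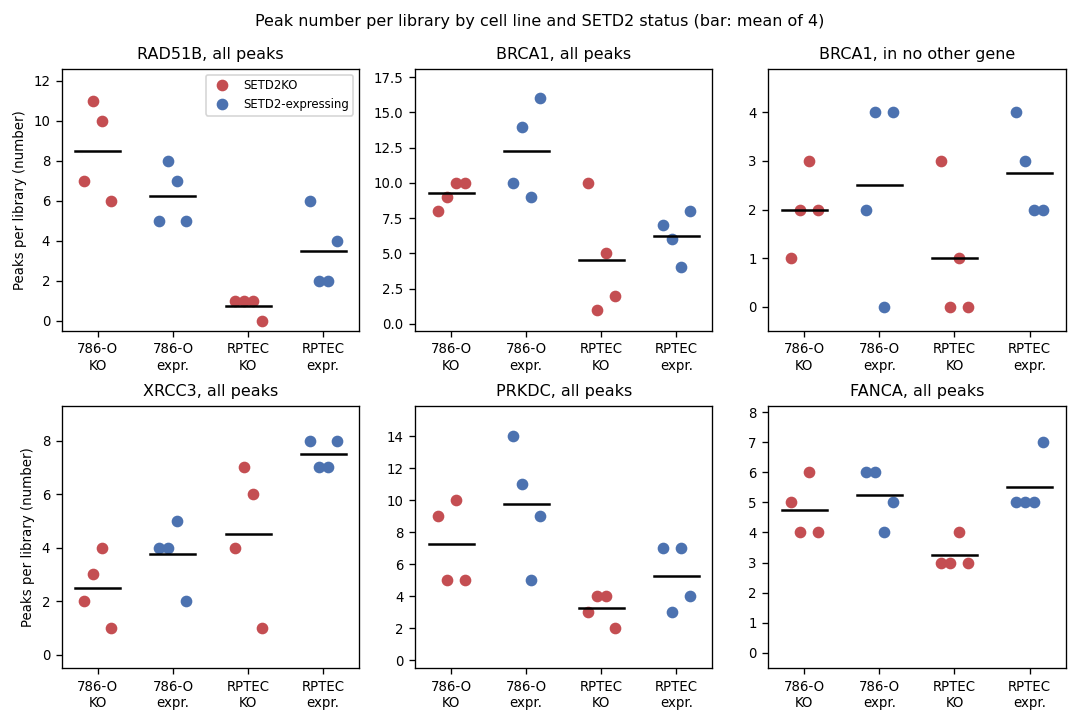
Peaks per library (vertical axis, number) in each panel's gene, with 1 point per library in 4 groups of 4 by cell line and SETD2 status (KO, SETD2KO and expr., SETD2-expressing) and a bar at the mean. RAD51B and BRCA1 lie higher in 786-O, XRCC3 lies higher in RPTEC, and the RPTEC SETD2KO points of RAD51B lie at 0 or 1.

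RAD51B, which acts in homologous recombination on single-stranded DNA, had 5 and 8 peaks in the 786-O WT libraries, 7 and 11 in SETD2KO-1, 10 and 6 in SETD2KO-2, and 7 and 5 in SETD2KO-1R. In RPTEC it had 6 and 2 in WT, 1 and 1 in SETD2KO-1, 1 and 0 in SETD2KO-2, and 2 and 4 in SETD2KO-1R. All 786-O libraries were at 5 or more and all RPTEC libraries but WT replicate 1, at 6, were at 4 or fewer, so that the ranges met through that library. The mean was 7.38 ± 2.20 in 786-O and 2.12 ± 1.96 in RPTEC (SD, n = 8 each), a difference of 5.25 (exact permutation test, p = 0.000777, adjusted p = 0.0252), and the call held with each library left out in turn. It was lost among the better-scoring peaks, where the difference fell to 1.25 both with the upper 50% of each list and with the same number of best-scoring peaks per library (exact permutation tests, adjusted p = 0.449 and 0.511). With the 4 lines of each cell line as the units the difference was still 5.25 (exact permutation test, adjusted p = 0.282). None of the 13420 genes tested was called on those units, so that this setting cannot tell whether the RAD51B call holds. Per 10000 library peaks the means were 2.22 ± 0.441 and 0.769 ± 0.697 (exact permutation test, adjusted p = 0.0246). With the peaks that touch another gene left out the means were 5.5 ± 2 and 1.88 ± 1.81, a difference of 3.62 (exact permutation test, p = 0.00311, adjusted p = 0.0641).

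Most of the difference lay in the 3' part of this 863 kb gene. In the last 200 kb, a window chosen after its values were seen, the 786-O libraries had 37 peaks in all, or 4.62 ± 2.26 per library, and the RPTEC libraries 3, or 0.375 ± 0.744 (SD, n = 8 each). Before that window the totals were 22 and 14, or 2.75 ± 1.04 and 1.75 ± 1.58 per library. The peaks in the window fell into 17 regions, and 15 of them were called in no RPTEC library. Many of the 15 were called in only 1 786-O library, and 37.2% of all regions were called in 1 library. No RAD51B region passed, and the one with most 786-O calls beside none of RPTEC had 6 (Fisher's exact test, adjusted p = 0.426). The best RAD51B peak of a library was of middling rank, at 57.6 ± 12.9 percentile of its list in 786-O (SD, n = 8) and 32.7 ± 20.4 in RPTEC (SD, n = 7).

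**Figure D3:**
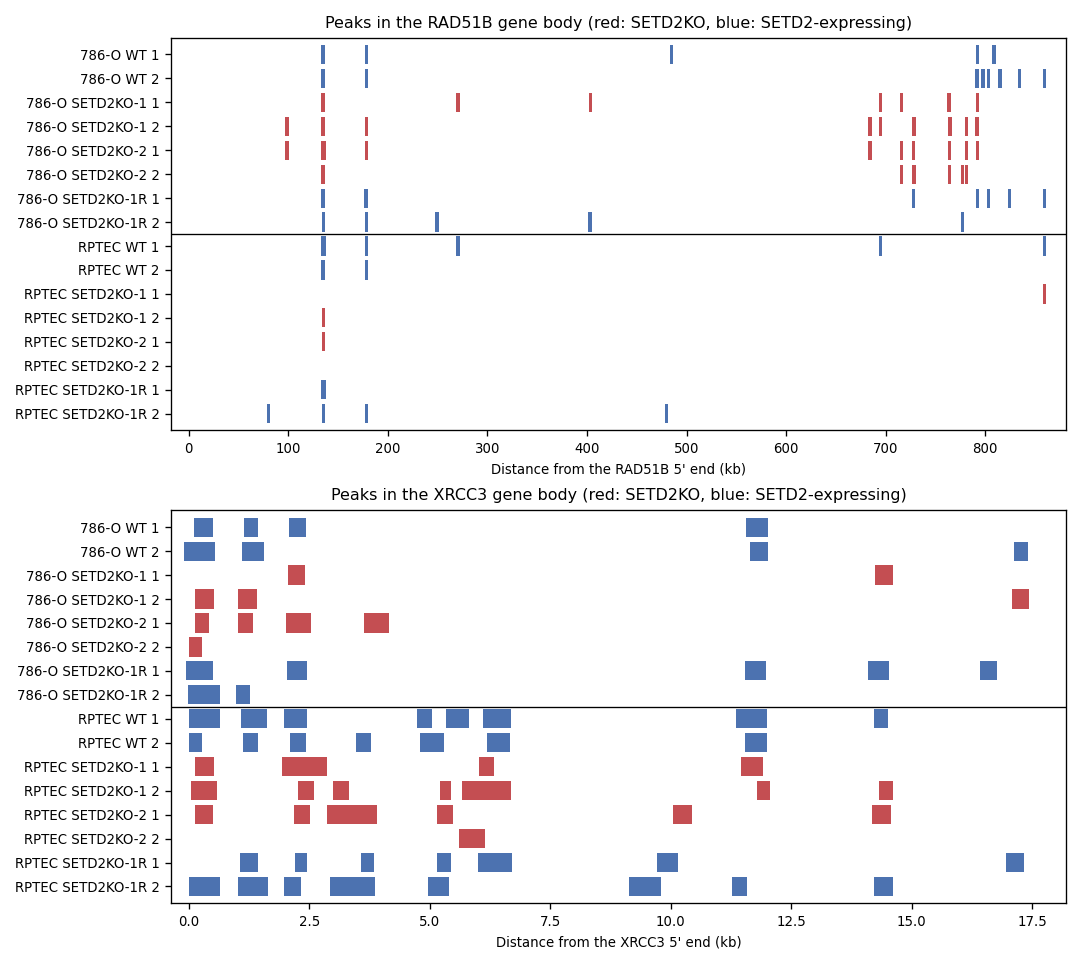
Peaks of each library (1 row per library, red for SETD2KO and blue for SETD2-expressing, 786-O above the line and RPTEC below) along the RAD51B and XRCC3 gene bodies, by distance from the 5' end in kb. Peaks too short to see are drawn at a minimum width. RAD51B peaks in the last 200 kb are 37 in 786-O and 3 in RPTEC, and XRCC3 has a column of peaks near 5.72 kb in the 8 RPTEC libraries.

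BRCA1, the ubiquitin ligase that promotes resection and recombination, had the highest mean of the repair genes over the 16 libraries, at 8.06. Its 786-O libraries had 10 and 14 peaks in WT, 8 and 9 in SETD2KO-1, 10 and 10 in SETD2KO-2, and 9 and 16 in SETD2KO-1R. Its RPTEC libraries had 7 and 6, 10 and 1, 5 and 2, and 4 and 8 in the same order. The ranges overlapped through RPTEC SETD2KO-1 replicate 1, at 10, and SETD2KO-1R replicate 2, at 8, level with the lowest 786-O library. The means were 10.8 ± 2.76 and 5.38 ± 3.02 (SD, n = 8 each), a difference of 5.38 (exact permutation test, p = 0.00249, adjusted p = 0.0470). BRCA1 was not called with the upper 50% of each list, with the same number of best-scoring peaks per library or with the replicate block. Leaving out 1 library kept the call in 3 of 16 cases, without 786-O SETD2KO-1 replicate 1, RPTEC SETD2KO-1 replicate 1 or RPTEC SETD2KO-1R replicate 2, and lost it without any of the others (exact permutation tests, adjusted p 0.0170 to 0.0709), and per 10000 library peaks the call was lost (3.38 ± 1.25 against 2.05 ± 1.16, exact permutation test, adjusted p = 0.205).

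The BRCA1 peaks were also not all peaks of BRCA1 alone. Of the 129 peaks in its gene body, 96, or 74.4%, touched another gene of the table as well, and the lists carry no strand. Peaks in no other gene numbered 2.25 ± 1.39 per library in 786-O and 1.88 ± 1.46 in RPTEC (SD, n = 8 each). This difference of 0.375 did not pass (exact permutation test, p = 0.726, adjusted p = 1). Peaks shared with another gene numbered 8.50 ± 1.77 and 3.50 ± 2.07, so that the difference lay in the shared peaks. The table gives BRCA1 a body of 126033 bp with 2 annotated starts 45 kb apart. The start nearer the 3' end lies 193 bp from the start of NBR2, a noncoding gene on the opposite strand. Upstream of it the 786-O libraries had 63 peaks and the RPTEC libraries 28, or 7.88 ± 1.89 and 3.50 ± 2.07 per library. Downstream of it, over the 81.1 kb that run to the 3' end, they had 18 and 13, or 2.25 ± 1.39 and 1.62 ± 1.41.

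**Figure D4:**
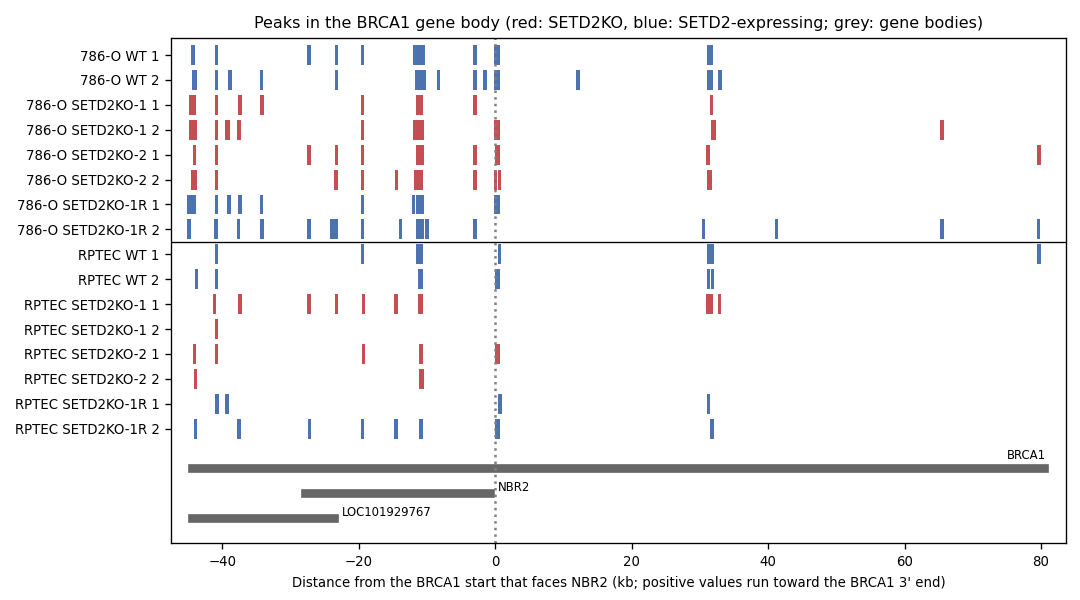
Peaks of each library (1 row per library, red for SETD2KO and blue for SETD2-expressing) along the BRCA1 gene body, by distance in kb from the start that faces NBR2, with the gene bodies in grey below and short peaks drawn at a minimum width. Most 786-O peaks lie at negative distances, upstream of that start.

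The start of BRCA1 and the start of RNF168 are printed because, of the 38 repair genes with an annotated start, these genes carried a peak over one most often: RNF168 in 12 of 16 libraries, 6 of each cell line, and BRCA1 in 8 over either of its 2 starts, of which 6 were 786-O and 2 RPTEC. The BRCA1 start printed is the one that faces NBR2, which had a peak over it in 5 libraries of 786-O and 2 of RPTEC. Each line gives 250 bases before the start in lower case and the first 30 transcribed bases in capitals, 5' to 3', from RefSeq (GRCh38.p14).
BRCA1, chr17:43125335-43125614, minus strand: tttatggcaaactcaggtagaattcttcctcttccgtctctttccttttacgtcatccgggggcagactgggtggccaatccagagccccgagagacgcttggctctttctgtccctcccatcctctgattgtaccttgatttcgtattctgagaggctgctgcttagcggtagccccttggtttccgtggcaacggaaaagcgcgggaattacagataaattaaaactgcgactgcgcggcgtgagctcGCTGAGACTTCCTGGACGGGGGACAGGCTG
RNF168, chr3:196503739-196504018, minus strand: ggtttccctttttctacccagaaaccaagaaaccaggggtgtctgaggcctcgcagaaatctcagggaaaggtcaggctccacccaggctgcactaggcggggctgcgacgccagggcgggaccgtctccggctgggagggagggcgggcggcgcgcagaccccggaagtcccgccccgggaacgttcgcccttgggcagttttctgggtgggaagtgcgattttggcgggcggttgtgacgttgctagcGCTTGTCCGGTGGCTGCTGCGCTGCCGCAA
The motif GGAC, searched on the printed strand alone because m6A lies in RNA, occurs 2 times in the 30 capitals of BRCA1 and 0 times in those of RNF168, and 11% of the 35116 annotated starts hold it in the same 30 bases. A match is a description of the letters and not a mapped m6A site. No repair gene had a peak over a start in all 16 libraries, where 0.896% of protein-coding genes with a start did, and 15 had one in at least 1. EXO1 followed with 6 libraries, 5 of them 786-O, and then RIF1 with 5 and CHEK1 and XRCC3 with 4 each.

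Sharing with another gene was uneven among the repair genes. It was 100% for RAD51D (31 of 31 peaks), 91.5% for MDC1, 80.0% for MRE11, 54.2% for CHEK1, 49.3% for FANCA, 36.2% for FANCC and 22.4% for RAD51B. The shared peaks cannot be assigned to 1 of the overlapping genes.

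XRCC3, a recombination protein that pairs with RAD51C, ran the other way. It had 4 and 4 peaks in the 786-O WT libraries, 2 and 3 in SETD2KO-1, 4 and 1 in SETD2KO-2, and 5 and 2 in SETD2KO-1R. In RPTEC it had 8 and 7, 4 and 7, 6 and 1, and 7 and 8 in the same order. In RPTEC, 6 libraries lay above every 786-O library, and SETD2KO-2 replicate 2, at 1, was level with the lowest of 786-O. The means were 3.12 ± 1.36 and 6 ± 2.39 (SD, n = 8 each), which did not pass as numbers (exact permutation test, adjusted p = 0.158). Per 10000 library peaks they were 0.940 ± 0.382 and 2.21 ± 0.808, which passed (exact permutation test, p = 0.0028, adjusted p = 0.0419).

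When the peaks of all 16 libraries were merged where they overlapped, the repair genes held 393 of 99514 regions. Of these, 148, or 37.7%, were called in 1 library, against 37.2% of all regions. Fisher's exact test of the calls in 8 and 8 libraries, adjusted over all regions, called 1 repair gene region. It lay in XRCC3 at chr14:103708752-103710720, 5.72 kb from the 5' end, and was called in all 8 RPTEC libraries and none of 786-O (Fisher's exact test, p = 0.000155, adjusted p = 0.0476). Of all regions, 0.152% had this pattern and 0.175% the reverse, which no repair gene region had. The peak was of middling rank, at the 45.5 ± 21.5 percentile of its list (SD, n = 8). The call was lost with other settings: 3 RPTEC libraries had a peak over at least 50% of the region, 4 called it with the upper 50% of each list, and 7 with the same number of best-scoring peaks (Fisher's exact tests, adjusted p = 1, 1 and 0.190), while 786-O stayed at 0. With these settings no region at all was called, of 99285, 50194 and 65493 tested, so that the loss is not particular to XRCC3. Without RPTEC WT replicate 1 the XRCC3 region divided into smaller ones, and its best part was called in 5 of 7 RPTEC libraries (Fisher's exact test, adjusted p = 0.351).

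Of the repair gene regions, 16 were called in all 16 libraries, or 4.07%, near the 4.24% of all regions. They lay in 14 genes: WEE1, RAD50, NBN, MDC1, RNF168, PSIP1, PALB2, BRIP1, XRCC2, XRCC5, LIG4, FANCA, WRN and MSH6, with 2 each in RNF168 and FANCA. The highest ranked was in PSIP1 at chr9:15474137-15474496, where the best peak averaged the 98.9 ± 1.1 percentile of its list (SD, n = 16). The next was in MSH6 at chr2:47798346-47799494, at 95.6 ± 2.52. Both genes encode readers of H3K36me3. Their peak numbers in 786-O were 2.25 ± 1.26 in SETD2KO and 4 ± 0.816 in SETD2-expressing libraries for PSIP1, and 3.5 ± 0.577 and 5.25 ± 1.5 for MSH6 (SD, n = 4 each). These ranges overlapped. For MSH6 the 786-O WT libraries had 7 and 6 peaks, SETD2KO-1 had 4 and 4, SETD2KO-2 had 3 and 3, and SETD2KO-1R had 4 and 4, so that the rescued clone was level with its parent clone and WT alone was higher. For PSIP1 the order was 4 and 5, 1 and 4, 2 and 2, and 4 and 3. Per 10000 library peaks neither gene's groups overlapped, as for 335 of the 12430 genes tested that were lower and 223 that were higher in SETD2KO on that scale. In RPTEC the means were 2.5 ± 1 and 2 ± 0 for PSIP1, and 3.75 ± 1.89 and 3.75 ± 0.5 for MSH6. RNF168 held the next at chr3:196471990-196473045, at 89.6 ± 6.27, 3.73 kb from its 3' end, and a further region at chr3:196503005-196503843 beside its start, at 59.6 ± 13.1. Regions of WRN, at 87.0 ± 6.04, and of NBN, at 81.3 ± 6.78, followed.

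By the score, the repair genes ranked somewhat below other genes of the same reach. Over the 25 with a peak in all 16 libraries, the percentile of a gene's best peak in its library averaged a median of 74, against 79 over the 4626 genes. PSIP1 was at 98.9 ± 1.08 and no library was under 95.6. MSH6 was at 95.6 ± 2.52, RNF168 at 94.9 ± 5.98 and PRKDC at 93.8 ± 5.09 (SD, n = 16 each). PARP1 was at 95.6 ± 7.45 over the 15 libraries with a peak. Between the cell lines, 16 of the 25 were higher in 786-O and 9 in RPTEC, with a median difference of 1.21 points against 2.18 over all genes. None was called, where 1.08% of genes were called higher in 786-O and 0.476% higher in RPTEC, and 5 of the 25 had an unadjusted p of at most 0.05, against 16.9% of all genes. PMS2 was at 53.0 ± 12.1 in 786-O and 34.4 ± 14.3 in RPTEC, and TP53BP1 at 87.2 ± 8.64 and 70.7 ± 16 (SD, n = 8 each; exact permutation tests, adjusted p = 0.185 and 0.213).

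**Figure D5:**
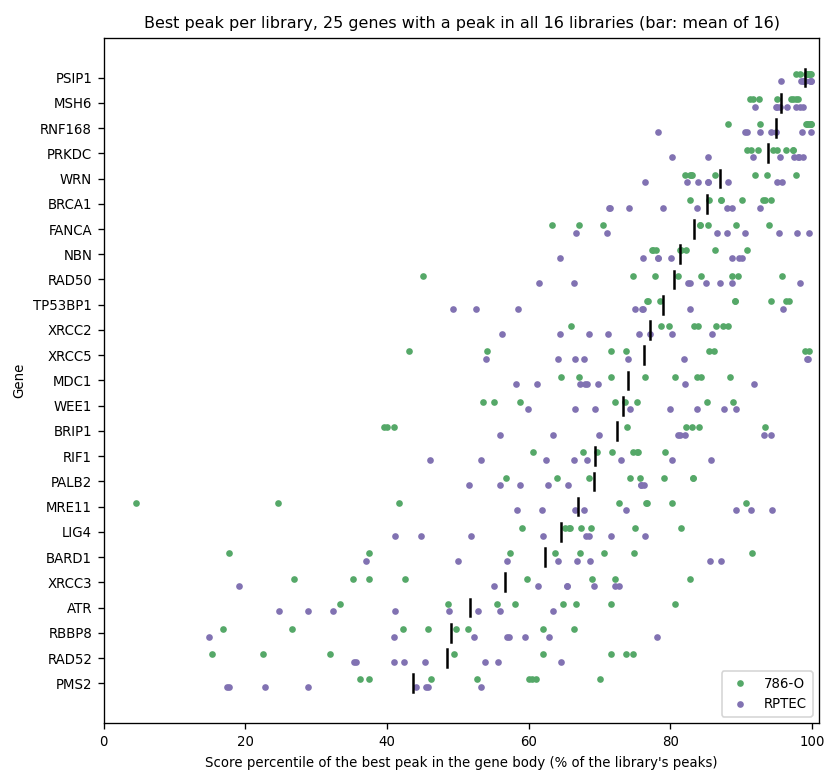
Score percentile of the best peak within its library (horizontal axis, % of the library's peaks) for the 25 repair genes with a peak in all 16 libraries (vertical axis), 1 point per library coloured by cell line and a bar at the mean of 16. PSIP1 lies at the top with a narrow spread, and PMS2, ATR and BARD1 are spread widely.

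The second question of the design was whether the peaks differ with SETD2 status. In 786-O the repair genes held 140 ± 17.5 peaks per SETD2KO library and 149 ± 26.3 per SETD2-expressing library (SD, n = 4 each). In RPTEC they held 95 ± 17.8 and 119 ± 18.8. Per 10000 library peaks the values were 41.0 ± 2.09 and 47.4 ± 4.63 in 786-O, and 37.9 ± 4.12 and 42.9 ± 3.52 in RPTEC, with overlapping ranges in both. In RPTEC, 33 to 37 repair genes had a peak in a SETD2KO library and 40 to 42 in a SETD2-expressing one, which did not overlap. Over all protein-coding genes these numbers overlapped, at 7739 to 9446 and 8428 to 9670. In 786-O the repair genes with a peak were 39 to 42 and 39 to 43.

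Gene by gene, no repair gene was called for SETD2 status in either cell line, nor was any of the genes tested (exact permutation tests over 4 and 4 libraries, smallest p possible 0.0286, lowest adjusted p 1). At an unadjusted p of at most 0.05 there were 301 genes in 786-O and 295 in RPTEC. In 786-O, 13 repair genes had the higher mean in SETD2KO and 25 the lower, with a median difference of -0.25 peaks, while over all genes 5597 were higher and 4996 lower, with a median of 0. In RPTEC, 9 were higher and 29 lower, with a median of -0.5, while over all genes 3711 were higher and 6530 lower, with a median of -0.25. In both cell lines together, tested by permutation within each cell line, 11 were higher and 32 lower, with a median of -0.312, against 5241 and 6638 over all genes, with a median of 0. No gene was called there (lowest adjusted p 0.261), although 717 had an unadjusted p of at most 0.05. SETD2 status differs between lines and not within them, so that differences between clones and SETD2 status cannot be told apart.

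Groups that did not overlap were counted as well. No repair gene had SETD2KO and SETD2-expressing peak numbers that did not overlap in 786-O, where 1.52% of genes were higher in SETD2KO and 0.901% higher in SETD2-expressing libraries. In RPTEC RAD51B and FANCA did not overlap, both lower in SETD2KO. There the background was 1.41% lower and 1.01% higher in SETD2KO. RAD51B was at 0.75 ± 0.5 in the RPTEC SETD2KO libraries, with 1, 1, 1 and 0, and at 3.50 ± 1.91 in the SETD2-expressing ones, with 6, 2, 2 and 4 (SD, n = 4 each), with p = 0.0286 and adjusted p = 1 by the exact permutation test. In 786-O its order was the opposite, at 8.50 ± 2.38 and 6.25 ± 1.5 with overlapping ranges (exact permutation test, p = 0.229). The difference between the cell lines in this effect was 5 peaks (permutation test, p = 0.017, adjusted p = 1), and 485 genes had an unadjusted p of at most 0.05 for it. FANCA had 3, 3, 4 and 3 peaks in the RPTEC SETD2KO libraries and 5, 5, 5 and 7 in the SETD2-expressing ones. The means were 3.25 ± 0.5 and 5.50 ± 1.00 (SD, n = 4 each), while in 786-O they were 4.75 ± 0.957 and 5.25 ± 0.957 with overlapping ranges. With the upper 50% of each list the RAD51B difference in RPTEC was -0.25, and with the same number of best-scoring peaks -1, with overlapping groups in both. With the same number of best-scoring peaks per library the FANCA difference in RPTEC turned to 0.25 in the other direction. The FANCA groups in RPTEC also overlapped with the upper 50% of each list and with peaks in no other gene.

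Other repair genes that leaned one way in both cell lines did not pass either, and those named here were chosen after their values were seen. BLM had a mean of 1.25 peaks in SETD2KO and 3.50 in SETD2-expressing 786-O libraries, and 0.25 and 1.5 in RPTEC (permutation test, p = 0.0037, adjusted p = 0.565). In 786-O its libraries had 5 and 5 peaks in WT, 1 and 1 in SETD2KO-1, 2 and 1 in SETD2KO-2, and 2 and 2 in SETD2KO-1R, so that WT stood above the other 3 lines and the rescued clone lay beside the knockouts. XRCC3 was lower by 2.12 peaks and FANCA by 1.38, and RNF168 was higher by 1.25 (permutation tests, adjusted p = 0.772 each). BARD1 was lower in the percentile of its best peak, at 52.0 ± 11.5 in SETD2KO and 77.0 ± 10.8 in SETD2-expressing RPTEC libraries and at 45.8 ± 23.1 and 74.3 ± 12.3 in 786-O (SD, n = 4 each; permutation test over both cell lines, p = 0.00245, adjusted p = 0.306).

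At the level of regions, 1 had a peak in each of the 4 SETD2KO libraries of 786-O and in no SETD2-expressing library of that cell line, as did 0.375% of all regions. It lay in RAD51B at chr14:68581637-68582953, 763 kb from the 5' end and in the 3' part described above, and was called in no RPTEC library. The reverse pattern, at 0.118% of all regions, had no repair gene region. In RPTEC, 2 regions had a peak in each of the 4 SETD2-expressing libraries and lacked one in every SETD2KO library, against 0.142% of all regions, and none the other way, against 0.187%. One lay in CHEK1 at chr11:125678027-125678707, where it overlaps ACRV1, and in 786-O it was called in both WT and both SETD2KO-1 libraries and in no SETD2KO-2 or SETD2KO-1R library. The other lay in XRCC3 at chr14:103713802-103714462, 1.32 kb from the 5' end, and in 786-O 2 SETD2KO libraries and 3 others called it. Neither region followed SETD2 status in 786-O.

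The place of a peak's midpoint along the gene could be read for the 38 repair genes with an annotated start, which leaves out WEE1, NBN, DNA2, XRCC5, PRKDC, FANCI and WRN and keeps at most 142 peaks per library in 786-O and 123 in RPTEC. Within 1 kb of the 5' end lay 5.50 ± 1.35% of these peaks in 786-O and 5.33 ± 2.02% in RPTEC (SD, n = 8 each), against 9.43% and 8.63% over the 15843 protein-coding genes with a start. Within 1 kb of the 3' end lay 2.01 ± 0.662% and 2.89 ± 1.13%, against 5.88% and 5.95%. Gene length was not held equal in this comparison. The densest genes for their length were short, with 29.3 peaks per 100 kb in MDC1, 25.6 in XRCC3, 23.5 in LIG4, 15.1 in MSH6 and 12.1 in RNF168, as the mean of 16 libraries. Other short genes were less dense, such as WEE1 at 8.43 and RAD54L at 4.06. Peak number followed length weakly, with Spearman's rho 0.224 over the 45 genes and 0.346 over the 13420 genes with a peak, which share the same libraries.

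A further list of 60 repair genes, chosen as the other genes of the same pathways, served as context. Of these 58 had a peak, with 45 higher in 786-O and 7 lower, and 1 was called: SLX4, a scaffold for structure-specific nucleases, at 5.38 and 2.75 peaks (exact permutation test, adjusted p = 0.0470). For SETD2 status, UBE2T, the ubiquitin-conjugating enzyme of the Fanconi pathway, did not overlap in 786-O, at 0 in all 4 SETD2KO libraries and 1, 1, 1 and 2 in the others. BABAM2, a subunit of the BRCA1-A complex, did not overlap in RPTEC. It had 3, 5, 4 and 2 peaks in the SETD2KO libraries and 10, 7, 9 and 9 in the others, lower by 5.25 peaks, and 11, 16, 21 and 16 against 13, 9, 13 and 7 in 786-O, where the ranges overlapped.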

How the data were processed

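MeRIP-seq peak lists of 16 IP libraries were analysed, with 1 peak list per library. The Input libraries were not analysed here. According to the study's methods and the labels, the authors aligned reads to hg38 with STAR, counted them with HTSeq, scaled them by spiked-in E. coli RNA, and ran MACS2 on IP against Input in each library. The deposited value of a peak is a whole-number score whose scale is not stated in the sources used here, so that the score only ranked peaks within a list. The lists hold no read counts, so depth is unknown and no interval is given for a single peak. The authors' DESeq2 comparison rests on read counts and was left out.

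Peaks were assigned to gene bodies of the GRCh38.p14 RefSeq gene table by an overlap of at least 1 bp. The table has no exons. Sequences were read from RefSeq's table of annotated starts, and no sequence under the peaks was used. Peak numbers and best score percentiles were compared by two-sided exact permutation tests over libraries (within cell lines where both were joined), and regions by Fisher's exact test, with Benjamini-Hochberg adjustment over all genes or regions tested and a threshold of 0.05. Groups follow the sample titles. The replicate differences of 2 lines correlated with both signs, at r from -0.359 (RPTEC SETD2KO-1 and SETD2KO-2) to 0.380 (786-O SETD2KO-2 and SETD2KO-1R). Libraries with the same replicate number thus deviated together in some pairs of lines and not in others. The members and lists, and the rule for what is named, were chosen with earlier results of these data known. Values by library, or their lowest, median and highest, were given for genes called in a comparison, genes whose SETD2KO and SETD2-expressing libraries do not overlap in a cell line, and the 8 genes with the highest mean peak number. Regions were named where every library of one group called them and the opposing group had no call, together with the 5 of highest rank among those called in all 16 libraries. Other named items were chosen after their values were seen, as the text says. Alternatives were an overlap of 50 bp, midpoints, the upper 50% of each list, the same number of peaks per library, a minimum peak length, the share per 10000 library peaks, a replicate block, lines as units, merging within 100 bp, coverage of at least 50% of a region, other rank measures, each library left out in turn and, added after seeing the data, peaks in no other gene. The steps were tested on simulated data. SciPy 1.17.1, pandas 2.3.3 and NumPy 2.4.6 under Python 3.11.15 gave the values, and Matplotlib 3.10.9 the plots.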

Additional observations from a re-analysis of the deposited data

Results flagged for a closer look

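In 5 of the 60 groups of 4 or 8 libraries examined, 1 library was flagged by its gap to the next value relative to the range. Chance alone flags about 1 in 20 groups of continuous values, a rate that does not hold for small whole numbers with ties. In the RPTEC SETD2KO libraries RAD51B had 0 peaks in SETD2KO-2 replicate 2, against 1 in each of the others. FANCA had 4 peaks in RPTEC SETD2KO-2 replicate 1, against 3 in the other SETD2KO libraries, and 7 in RPTEC SETD2KO-1R replicate 2, against 5 in the other SETD2-expressing libraries. TP53BP1 had 6 peaks in 786-O WT replicate 2, against 4 in the other SETD2-expressing libraries, and 8 in RPTEC SETD2KO-1 replicate 2, against 3 in the other SETD2KO libraries. All 5 were groups of 4, and in each the other 3 libraries had equal peak numbers, so that a difference of even 1 peak was flagged.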

How the results depend on the processing

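The number of repair genes called between 786-O and RPTEC was 2, beside 462 of 13420 genes higher and 257 lower in 786-O. It was 0 with the upper 50% of each list, beside 64 of 11791 higher and 65 lower. With the same number of best-scoring peaks it was 1 (XRCC3, higher in RPTEC), beside 148 of 12502 higher and 282 lower. With a minimum peak length it was 4 (BRCA1, MDC1, RAD51B and RAD54L), beside 495 of 13111 higher and 210 lower. The replicate block gave 1, RAD51B, beside 427 of 13420 higher and 246 lower, as BRCA1 had adjusted p = 0.0649 (exact permutation test). Peaks in no other gene gave 0, beside 304 of 11872 higher and 202 lower. With the lines as units no gene of any kind was called, where the smallest p possible in the exact permutation test is 0.0286. Leaving out 1 library gave 1 to 3, beside 352 to 683 genes higher and 233 to 299 lower of 13340 to 13398. RAD51B was called in all 16 runs with a library left out. BRCA1 was called in 3, without 786-O SETD2KO-1 replicate 1, RPTEC SETD2KO-1 replicate 1 or RPTEC SETD2KO-1R replicate 2. Of all genes called, 64.3% were higher in 786-O, against 45.6% per 10000 library peaks and 34.4% with the same number of peaks.

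Repair genes without overlap by SETD2 status numbered 0 in 786-O. This became 1 with the same number of peaks (MSH6, beside 121 of 11170 genes lower and 77 higher). It was 1 with a minimum peak length (PSIP1, beside 112 of 12162 lower and 143 higher). Per 10000 library peaks it was 3 (BLM, MSH6 and PSIP1, beside 335 of 12430 lower and 223 higher). All of these were lower in SETD2KO. With a library left out it was 0 to 1, beside 145 to 218 lower and 215 to 423 higher of 12283 to 12352 genes. In RPTEC it was 2. It was 0 with the upper 50% (82 of 10332 genes lower, 69 higher) and with the same number of peaks (84 of 11428 lower, 123 higher). In the latter FANCA reversed to 0.25. With a minimum peak length it was 4, with BLM, FANCA and RAD51B lower and RNF168 higher in SETD2KO. Beside them 110 of 11661 genes were lower and 117 higher. Per 10000 library peaks it was 5 (CHEK1, EXO1, FANCA, RAD51B and XRCC3, all lower in SETD2KO), beside 238 of 12185 lower and 264 higher. It was 1 with peaks in no other gene (146 of 10671 lower, 91 higher) and 2 with the replicate block (172 of 12185 lower, 123 higher). With a library left out it was 2 to 5, beside 232 to 400 lower and 132 to 256 higher of 12009 to 12121 genes. In both cell lines together no repair gene was called under the alternatives run. No region at all, the XRCC3 region included, was called with at least 50% of a region covered, the upper 50% or the same number of peaks. With a library left out 1 repair gene region was called each time, which without RPTEC WT replicate 1 was a PRKDC region. The best score percentile gave 0 calls, and 0 to 1 with a library left out (FANCI without RPTEC WT replicate 2). Depth is unknown, so that a missing peak is no evidence of absent m6A.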
